A study of Arabidopsis thaliana with 6 samples.

Results

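Kinesins are motor proteins that use ATP to move along microtubules or to change how microtubules grow and slide. Plant cells divide without centrosomes, and kinesins help to build their spindle and the phragmoplast, the microtubule array in which the new cell wall is laid down. Other plant kinesins act between divisions, on organelles and on the deposition of the cell wall. The kinesin genes of Arabidopsis thaliana were taken from a list of 60 loci, and a gene counted as measured where the platform's gene table tied a probe set to that gene alone. By this rule 42 of the 60 were measured, among 13356 genes in all, each by the probe set with the highest mean. The other 18 were not analysed here, among them the cytokinesis genes HIK, TES, POK1 and POK2, the spindle motor genes ATK1 and ATK5, the cell wall gene FRA1 and the chloroplast movement genes KAC1 and KAC2.

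RNA of the Col-0 wild type was hybridized to 6 Affymetrix arrays. Leaf samples (3 arrays) were taken from 20-day-old seedlings. Callus samples (3 arrays) were the cell masses that had formed on 20-day leaf blades after 20 days on callus-inducing medium (CIM), which holds an auxin, a cytokinin and glucose. The study's methods place explants in the dark, whereas the labels state alternating light and dark, and the light that these calli received is not settled. Tissue, medium, hormones and time in culture cannot be told apart.

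The values are log2 signals, so that a difference of 1 is 2-fold. The first quartile of the arrays lay between 4.15 and 4.23, and a signal under it is called dim here. No background level came with these values, so a fold against a dim signal is not exact. The arrays of a tissue correlated at 0.9949 or more across genes. All 4 measured leaf mesophyll markers (LHCB4.2, PRK, PSAE-1 and RCA) were lower in callus, and their mean signal was 13.12 to 13.23 on the leaf arrays and 5.26 to 5.37 on the callus arrays. Of 4 measured callus and root-type markers, 3 were higher in callus (PYK10, BBM and LBD16) and LBD29 was not called. The mean signal of the 4 was 8.05 to 8.16 in callus and 4.39 to 4.43 in leaf. The guard cell genes GC1 and FAMA were lower in callus and SPCH was not called, and the mean signal of the 3 was 4.01 to 4.18 in callus and 6.13 to 6.29 in leaf. These markers differ between the same arrays as each kinesin comparison below, and their part in the results was not tested. In such whole-tissue RNA a smaller number of cells of a type and less RNA per cell cannot be told apart.

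Callus was compared with leaf to find which kinesin genes differ between a proliferating tissue and the organ it came from. Of the 42 measured kinesin genes, 13 (31.0%) were called higher in callus and 0 were called lower. Calls required an adjusted p under 0.05 (limma, Benjamini-Hochberg over all genes) and a change beyond 2-fold. Over all genes, 16.4% were called higher and 13.2% lower. The called kinesin genes ranged from a 2.07-fold to a 5.43-fold rise. The median log2 fold change was 0.48 for the 42 genes and 0.01 for all genes. At any fold, 24 kinesin genes passed the adjusted p in the upward direction and 5 in the downward direction, against 34.4% and 26.7% of all genes. The counts were the same, 24 and 5, at an unadjusted p under 0.05 in limma. Each gene that passes the adjusted p passes this too, so the shares of all genes are at least 34.4% and 26.7%. They were not counted exactly. All 3 callus arrays lay above all 3 leaf arrays for 24 kinesin genes (57.1%, against 36.7% of all genes) and below them for 5 (11.9%, against 29.4%).

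**Figure D1:**
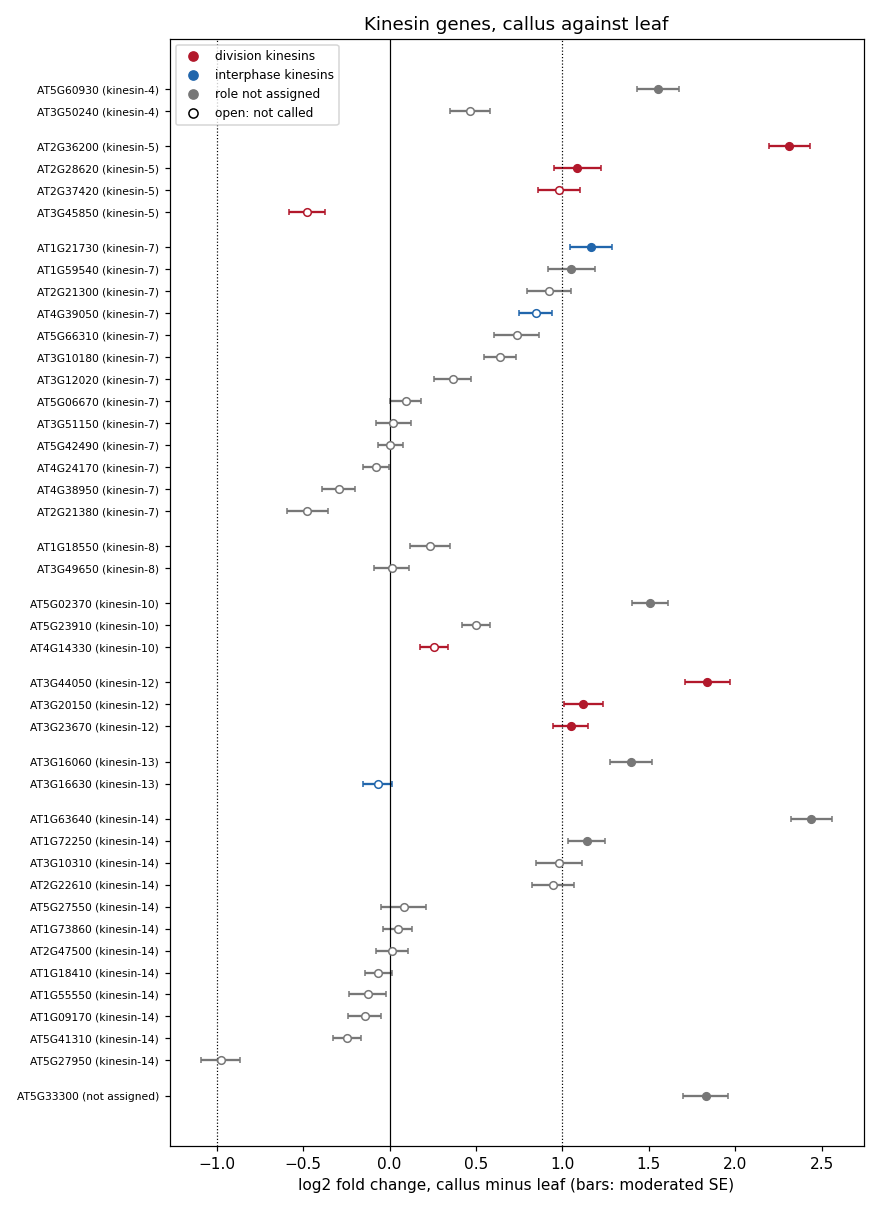
Log2 fold change of callus minus leaf for each of the 42 measured kinesin genes, grouped by family, with the moderated standard error as bars. Filled points are called genes, colour gives the class, and the dotted lines mark 2-fold. The 13 filled points all lie on the right, between 1.05 and 2.44, and the lowest point is AT5G27950 at -0.98.

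For 7 of the 42 kinesin genes (16.7%, against 21.7% of all genes) all 6 arrays lay below the first quartile, and 0 of these 7 were called. Of the 13 called genes, 7 were dim on all 3 leaf arrays, 3 were dim on 1 leaf array, and 3 (AT1G63640, AT3G16060 and AT5G33300) were dim on none. None of the 13 was dim on a callus array. No measured kinesin signal lay as far as 2-fold below the first quartile of its array. The 2-fold threshold thus left little room for a called gene to be dim on all 6 arrays or in callus.

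The kinesins of division were the genes placed from general knowledge in the spindle or the phragmoplast. The classes were set with earlier results of these data known. Of 15 such genes 8 were measured, and 5 of the 8 were higher in callus, with a median log2 fold change of 1.07. Of 8 kinesins placed in interphase roles 3 were measured, and 1 of the 3 was higher, with a median of 0.84. The remaining 37 genes were given no role, and 7 of their 31 measured members were higher, with a median of 0.23. The shares higher were 62.5%, 33.3% and 22.6% in this order, against 16.4% of all genes, and 0 genes of each class were lower, against 13.2%. No test set one class against another. The classes also differ in signal. All leaf arrays were dim for 5 of the 8 kinesins of division, 0 of the 3 of interphase and 15 of the 31 others. The mean leaf signal was 4.21 to 4.31 for division and 6.49 to 6.60 for interphase. The part of this in the shares was not tested.

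**Figure D2:**
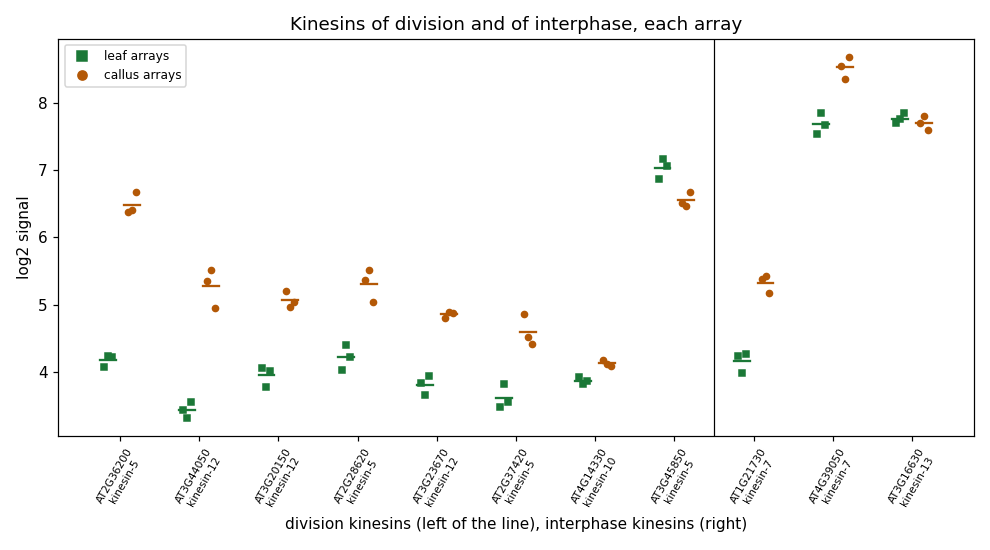
Log2 signal on each array for the 8 measured kinesins of division (left of the line) and the 3 of interphase (right), with squares for leaf arrays, circles for callus arrays and bars for the mean of 3. Only for KINESIN-13A (AT3G16630) do the tissues overlap, and AT3G45850 is the one gene with all callus arrays below the leaf arrays.

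Kinesin-5 motors link antiparallel microtubules and slide them apart in the spindle. All 4 listed members were measured. AT2G36200 had signals of 6.38, 6.41 and 6.68 on the callus arrays and of 4.08, 4.24 and 4.22 on the leaf arrays. The tissues stood far apart, with 1 leaf array dim. Its rise was 4.97-fold (log2 fold change 2.31 ± 0.12, SE, limma adjusted p = 7.11e-11). AT2G28620 was at 5.37, 5.52 and 5.04 in callus and at 4.04, 4.41 and 4.23 in leaf, again without overlap. It rose 2.12-fold (1.09 ± 0.14, limma adjusted p = 3.71e-06), close to the threshold. Without callus replicate 2 or leaf replicate 1 its fold fell below 2, with a lowest log2 fold change of 0.98. AT2G37420 stood at 4.86, 4.52 and 4.42 in callus against 3.47, 3.83 and 3.56 in leaf, where all 3 arrays were dim. Its log2 fold change of 0.98 ± 0.12 passed the adjusted p (2.72e-06) and missed the 2-fold threshold, so it was not called. It was called without callus replicate 2, without callus replicate 3 and without leaf replicate 2, at 1.02, 1.07 and 1.08.

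The fourth kinesin-5 gene had the opposite order of tissues. AT3G45850 was at 6.51, 6.47 and 6.67 in callus and at 6.87, 7.17 and 7.06 in leaf. All callus arrays lay below all leaf arrays, and no array was dim. The log2 fold change was -0.48 ± 0.11 (limma adjusted p = 0.000866), short of 2-fold and not called. Of the 8 measured kinesins of division, 7 had all callus arrays above all leaf arrays (87.5%, against 36.7% of all genes). AT3G45850 was the 1 with all of them below (12.5%, against 29.4%).

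Kinesin-12 motors include phragmoplast proteins that keep the microtubule plus ends in order at the midline of the dividing cell. Of 6 listed members 3 were measured, and 3 of the 3 were higher in callus, against 16.4% of all genes. AT3G44050 changed most, from 3.44, 3.32 and 3.56 in leaf to 5.35, 5.52 and 4.96 in callus. Callus replicate 3 was the lowest of its group and still far above each leaf array. The rise was 3.58-fold (log2 fold change 1.84 ± 0.13, limma adjusted p = 3.69e-09). AT3G20150 went from 4.06, 3.78 and 4.02 in leaf to 5.20, 4.97 and 5.05 in callus, a 2.17-fold rise (1.12 ± 0.11, adjusted p = 2.42e-07). KINESIN-12B (AT3G23670, also PAKRP1L) is close kin to the phragmoplast protein PAKRP1. Its signals were 3.84, 3.66 and 3.94 in leaf and 4.80, 4.89 and 4.88 in callus. This was the called gene nearest the threshold, at 2.07-fold (1.05 ± 0.10, adjusted p = 1.50e-07), and without leaf replicate 2 it lost its call at 0.97. The leaf signals of all 3 kinesin-12 genes were dim, so their folds are not exact.

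The last kinesin of division, AT4G14330, belongs to the kinesin-10 family and was dim on 5 of 6 arrays. It was at 4.18, 4.12 and 4.09 in callus and at 3.93, 3.83 and 3.87 in leaf, which did not overlap. Its log2 fold change was 0.26 ± 0.08 (limma adjusted p = 0.0113) and it was not called. Of the other kinesin-10 genes, AT5G02370 rose 2.84-fold, from 4.02, 3.94 and 4.10 in leaf to 5.53, 5.57 and 5.48 in callus (1.51 ± 0.11, adjusted p = 2.87e-09). The replicates of this gene were close in both tissues, and the leaf arrays were all dim. AT5G23910 had a log2 fold change of 0.50 ± 0.08 and was not called.

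Of the 3 interphase kinesins, KINESIN-13A is known from Arabidopsis for its place on Golgi stacks and for its part in leaf hair branching. KINESIN-13A was at 7.70, 7.81 and 7.59 in callus and at 7.70, 7.75 and 7.85 in leaf. The tissues overlapped, no array was dim, and the log2 fold change was -0.07 ± 0.08 (limma adjusted p = 0.517). Its family member AT3G16060 was at 7.83, 7.73 and 7.52 in callus and at 6.01, 6.39 and 6.48 in leaf. No array was dim for this gene either, and it rose 2.63-fold (1.40 ± 0.12, adjusted p = 4.95e-08). The family is known in animals for taking microtubule ends apart. The difference between the family members was not tested.

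The remaining interphase kinesins belong to the kinesin-7 family. AT1G21730 was at 5.39, 5.43 and 5.17 in callus and at 4.23, 3.99 and 4.27 in leaf, with no overlap. It rose 2.24-fold (log2 fold change 1.17 ± 0.12, limma adjusted p = 3.09e-07). AT4G39050 was at 8.55, 8.36 and 8.68 in callus and at 7.54, 7.85 and 7.67 in leaf. It was bright on every array and did not overlap, and its change of 1.80-fold (0.84 ± 0.10, adjusted p = 1.22e-06) stayed under the threshold.

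Kinesin-7 is the second largest family on the list, and HIK and TES, which are needed for cytokinesis, belong to it without being measured. Of 15 listed members 13 were measured, 2 were higher in callus (15.4%, against 16.4% of all genes) and 11 were not called. The median log2 fold change was 0.36. ZCF125 (AT1G59540) was the second called gene beside AT1G21730. It was at 4.88, 4.82 and 4.36 in callus and at 3.58, 3.46 and 3.87 in leaf, where all arrays were dim. Its replicates were spread widely (SD 0.29 in callus and 0.21 in leaf), and it rose 2.07-fold (1.05 ± 0.14, adjusted p = 4.88e-06). The call was lost without callus replicate 1, callus replicate 2 or leaf replicate 2, with a lowest value of 0.95.

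Several kinesin-7 genes passed the adjusted p and stayed under 2-fold with all 6 arrays. AT2G21300 was at 5.65, 5.62 and 5.48 in callus and at 4.48, 4.89 and 4.61 in leaf, with a log2 fold change of 0.92 ± 0.13. Without leaf replicate 2 it passed 2-fold and was called. AT5G66310 was at 5.81, 5.98 and 6.27 in callus and at 5.33, 5.27 and 5.25 in leaf (0.74 ± 0.13). For both of these the tissues did not overlap. AT3G12020 had a value of 0.36 ± 0.11. AT3G10180, the one kinesin gene with more than 1 probe set, had a value of 0.64 ± 0.09 with the brighter probe set and of -0.14 ± 0.08 with the dimmer one (adjusted p = 0.163), so its probe sets disagree. Below zero were AT2G21380, at 6.28, 6.36 and 6.06 in callus and 6.61, 6.92 and 6.59 in leaf (-0.48 ± 0.12), and AT4G38950 (-0.30 ± 0.10). The callus arrays of both lay below the leaf arrays. AT3G51150, AT4G24170, AT5G06670 and AT5G42490 lay between -0.08 and 0.09, with overlapping tissues, and AT4G24170, AT5G06670 and AT5G42490 were dim on all 6 arrays.

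Kinesin-14, the family whose members move toward microtubule minus ends, is the largest on the list, with 20 genes. Of these 12 were measured, 2 were higher in callus and 10 were not called, and the median log2 fold change was 0.03. The share higher, 16.7%, was near the 16.4% of all genes. AT1G63640, which carries a calponin-homology domain, a module found in actin-binding proteins, changed most of all measured kinesins. It was at 7.31, 7.45 and 7.22 in callus and at 4.68, 5.01 and 4.96 in leaf. The tissues lay far apart, no array was dim, and the rise was 5.43-fold (2.44 ± 0.12, limma adjusted p = 3.13e-11). AT1G72250 rose 2.21-fold, from 3.95, 4.02 and 3.95 in leaf to 5.23, 4.96 and 5.16 in callus (1.14 ± 0.11, adjusted p = 9.69e-08), with dim leaf arrays.

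A pair of kinesin-14 genes came close to the threshold from below. AT3G10310 was at 4.39, 4.71 and 4.75 in callus and at 3.94, 3.58 and 3.39 in leaf, with a log2 fold change of 0.98 ± 0.13. Its leaf arrays were all dim. AT2G22610 was at 5.24, 5.18 and 5.03 in callus and at 4.32, 3.97 and 4.31 in leaf (0.95 ± 0.12). Neither overlapped between tissues, and both were called when some single arrays were left out. AT3G10310 was called without callus replicate 1 (1.09) or leaf replicate 1 (1.13). AT2G22610 was called without callus replicate 3, leaf replicate 1 or leaf replicate 3, at 1.01 or less each time. AT3G10310 also has the calponin-homology domain, whereas the other 3 measured genes with it, AT2G47500, AT1G09170 and AT5G41310, were at 0.02, -0.14 and -0.25 and were not called. AT1G09170 and AT5G41310 were dim on all 6 arrays.

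AT5G27950 had the lowest log2 fold change of the measured kinesin genes. It was at 6.88, 6.68 and 6.54 in callus and at 7.48, 7.69 and 7.87 in leaf. The tissues did not overlap and no array was dim. The value of -0.98 ± 0.11 (limma adjusted p = 1.30e-06) puts leaf 1.97-fold above callus, so the gene was not called. It was called lower without callus replicate 1 (-1.07), without leaf replicate 1 (-1.08) and with quantile normalization applied again (-1.03). AT1G18410, AT1G55550, AT1G73860 and AT5G27550 lay between -0.13 and 0.08, each with overlapping tissues, and AT1G18410 and AT1G73860 were dim on all 6 arrays.

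**Figure D3:**
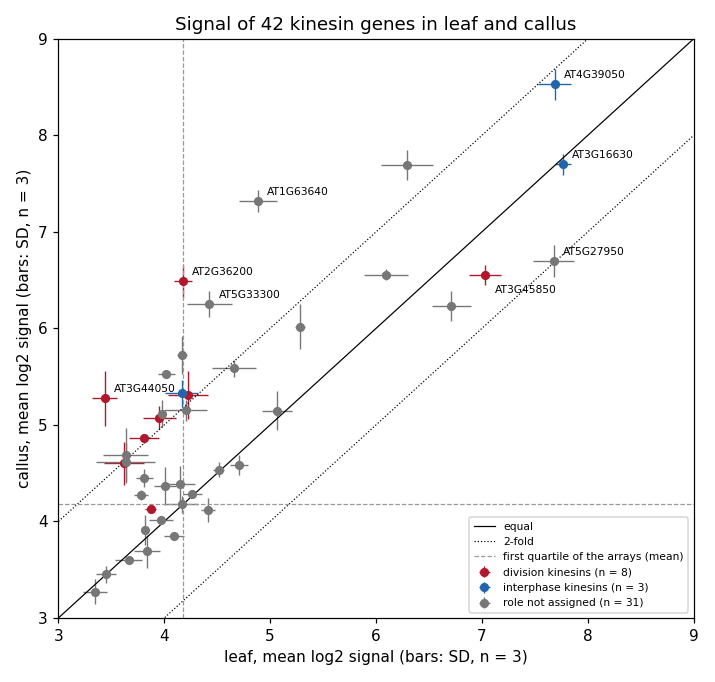
Mean log2 signal in callus against leaf for the 42 measured kinesin genes, with SD bars (n = 3), the line of equal signal, dotted lines at 2-fold and dashed lines at the mean first quartile of the arrays. AT1G63640, AT2G36200, AT5G33300 and AT3G44050 lie farthest above the line, and AT5G27950 and AT3G45850 lie below it.

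Kinesin-4 motors include FRA1, which acts in the deposition of cellulose fibres and was not measured. AT5G60930 of this family was at 5.84, 5.49 and 5.83 in callus and at 4.22, 4.13 and 4.15 in leaf. The leaf arrays were dim and close together, and the gene rose 2.94-fold (log2 fold change 1.56 ± 0.12, limma adjusted p = 1.05e-08). KICP-02 (AT3G50240) was at 6.51, 6.63 and 6.54 in callus and at 5.88, 6.29 and 6.10 in leaf, without overlap, and its change of 1.38-fold (0.46 ± 0.12, adjusted p = 0.00255) was not called. The kinesin-8 genes AT1G18550 and AT3G49650 overlapped between tissues, at 0.23 ± 0.11 (adjusted p = 0.0903) and 0.01 ± 0.10 (adjusted p = 0.933). AT5G33300, which was assigned to no family here, was at 6.32, 6.34 and 6.09 in callus and at 4.42, 4.64 and 4.21 in leaf. It rose 3.55-fold (1.83 ± 0.13, adjusted p = 4.16e-09) with no dim array.

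How far the called genes depend on the scaling of the arrays was examined with reference probe sets. Centring the arrays on TIP41, a reference gene, shifted the median of all genes by -0.59, centring on the hybridization controls by 0.26 and centring on the poly-A controls by 0.74. After centring on TIP41, 4 kinesin genes were called higher (AT1G63640, AT2G36200, AT3G44050 and AT5G33300, at 1.85, 1.73, 1.25 and 1.24) and 3 lower (AT5G27950 at -1.56, AT3G45850 at -1.07 and AT2G21380 at -1.06). On the poly-A controls 23 were called higher and 0 lower, and on the hybridization controls 18 were higher and 0 lower. Of all 13356 genes, 1257 were called higher and 2794 lower after centring on TIP41. The counts of all genes were 4456 and 1108 on the poly-A controls and 2781 and 1505 on the hybridization controls. The numbers of kinesins called higher rose in the same order of scalings as those of all genes. The values of the genes relative to each other do not change with such a shift. The 9 remaining called genes, AT5G60930, AT5G02370, AT3G16060, AT1G21730, AT1G72250, AT3G20150, AT2G28620, ZCF125 and KINESIN-12B, lay between 0.46 and 0.97 after centring on TIP41 and were not called there.

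**Figure D4:**
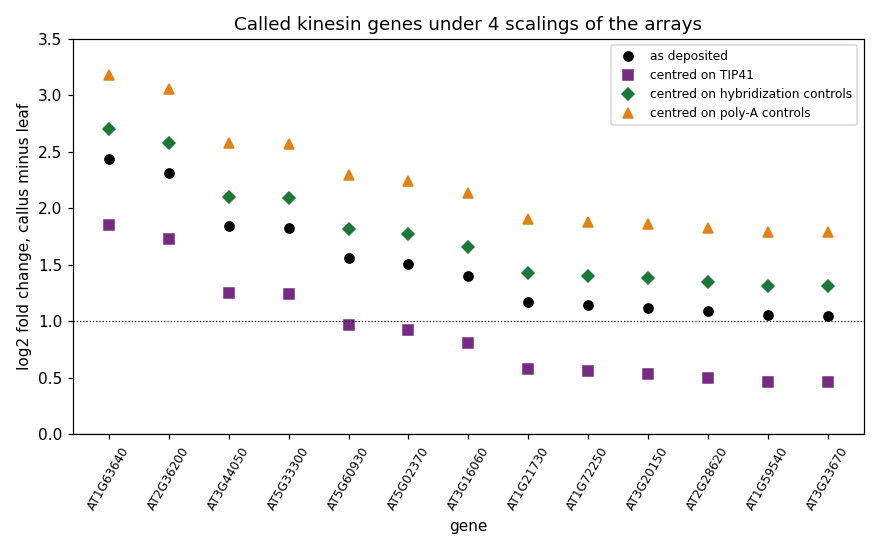
Log2 fold change of callus minus leaf for the 13 called kinesin genes as deposited and after 3 kinds of centring, which use TIP41, hybridization controls or poly-A controls. The dotted line marks 2-fold. With TIP41, 4 genes stay above it and 9 fall below.

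Other genes of mitosis and cytokinesis were taken from a list of 45 written from general knowledge, with earlier results of these data known. Of these, 5 were measured, and 4 of the 5 were called higher in callus and 0 lower, against 16.4% and 13.2% of all genes. At an adjusted p under 0.05 and any fold, 4 were higher and 1 was lower, against 34.4% and 26.7% of all genes. The partner counts were the same at an unadjusted p under 0.05 in limma. There the shares of all genes are at least those 34.4% and 26.7% and were not counted exactly. The other 40, the B-type cyclins and B-type cyclin-dependent kinases among them, were not analysed here. AUR3, AUR2 and AUR1 encode Aurora kinases, which act on chromosomes and the spindle in mitosis. Their log2 fold changes were 2.36 ± 0.18, 2.05 ± 0.12 and 1.96 ± 0.14. TIO (AT1G50240) encodes a kinase of the FUSED type that is needed for the expansion of the phragmoplast. It was at 7.14, 7.20 and 7.19 in callus and at 4.94, 5.38 and 5.24 in leaf, a 3.97-fold rise (1.99 ± 0.12, limma adjusted p = 5.02e-10). Its dimmer probe set gave -0.04 (adjusted p = 0.747), so the probe sets disagree. KEULE (AT1G12360), which acts in the fusion of vesicles at the cell plate and elsewhere in the plant, was at 8.77, 8.82 and 8.94 in callus and at 9.35, 9.41 and 9.39 in leaf. This change of -0.54 ± 0.07 (adjusted p = 2.46e-06) was not called, although no callus array reached a leaf array.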

How the data were processed

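RNA was profiled on 3 callus and 3 leaf arrays, from independent experiments according to the study's methods. The values are log2 expression as the authors deposited it, with 1 column for each array. RMA (background correction, quantile normalization, probe set summary) and Partek are named in the submitters' processing notes, without versions. Such normalization hides a change in total RNA per cell, and the number of arrays limits the precision.

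The table held 22810 probe sets, 64 of them controls. The platform's gene table gave 1 gene for 13513, several for 503 (not used) and no entry for 8730 (unnamed here). The probe set with the highest mean was kept for each of 13356 genes. Loci and symbols came from RefSeq genes of TAIR10.1. None of the 42 kinesin probe set IDs has a suffix for shared probes. Sequences were not used here.

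Callus was compared with leaf over all genes with limma 3.58.1 in R 4.3.3 (eBayes with an intensity trend, Benjamini-Hochberg). Every measured kinesin and division partner could be named, and no set test was run. Kinesin families, classes and the partner list were written from general knowledge. The members and lists were chosen with earlier results of these data known. The scripts were tested on simulated data. Alternatives covered thresholds, moderation, scaling, a filter on dim genes, probe set choice, a replicate block and leaving out each array.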

Additional observations from a re-analysis of the deposited data

How the results depend on the processing

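Of the 13 calls, 4 (AT1G63640, AT2G36200, AT3G44050 and AT5G33300) were kept in every alternative in which the gene was tested, and the filter on dim genes left 8 of the 42 kinesins. Leaving out 1 array gave 12 to 15 kinesins higher and 0 to 1 lower, 4 to 6 kinesins of division higher, and medians of 0.42 to 0.55 for all kinesins. Of all 13356 genes, 2158 to 2232 were then higher and 1747 to 1790 lower. Without the 2-fold threshold 24 kinesins were higher and 5 lower, against 34.4% and 26.7% of all genes. There, 1 kinesin of division was lower, 2 of interphase were higher and 1 partner was lower. Quantile normalization applied again gave 1 kinesin lower, against 1791 of all 13356 genes. With centring on TIP41, 4 kinesins were higher and 3 lower, against 1257 and 2794 of all 13356 genes. The share of the 42 kinesins that was higher there was near that of all genes. The median of the kinesins turned to -0.10 and that of all genes to -0.58. There, 2 kinesins of division were higher and 1 lower (median 0.48), 0 of interphase were higher (median 0.26), and 1 partner was lower (median 1.40). On the hybridization controls 18 kinesins were higher, against 2781 of all 13356 genes. The medians there were 0.74 for all kinesins, 1.33 for division, 1.11 for interphase with 2 higher, and 2.25 for partners. On the poly-A controls 23 kinesins were higher, against 4456 of all 13356 genes. The medians were 1.22, 1.81, 1.58 and 2.73 in the same order, and 2 of interphase were higher. With genes above the median signal alone, 8 kinesins were tested and 2 were higher (median 0.20). Of all 6678 genes above it, 1750 were higher (median 0.17), a share near that of the kinesins. There, 0 of division were higher (median -0.48, from 1 gene), 0 of interphase were higher (median 0.39) and 2 partners were higher. Fewer genes were tested in each of these groups. With the dimmer probe set TIO (AT1G50240) turned to -0.0407, not called. Same-numbered arrays did not deviate together (correlations of -0.11, 0.07 and -0.04), and the fit with the replicate block changed no call among the 42 kinesins, with 13 higher and 0 lower. TIP41 itself may differ between the tissues. No cell counts came with these values, so which centring is nearest to the RNA per cell cannot be told from them. Dim leaf signals limit the folds of 10 of the 13 called genes, 7 of them dim on all 3 leaf arrays and 3 on 1.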
